A study of Caenorhabditis elegans with 2 samples.

Results

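The 10 genes described here encode the dosage compensation complex of *Caenorhabditis elegans* and were taken by name: sdc-1, sdc-2, sdc-3, dpy-21, dpy-26, dpy-27, dpy-28, dpy-30, mix-1 and capg-1. All 10 were found by symbol among the 19973 protein-coding genes of the nuclear chromosomes. The question was whether chromatin immunoprecipitation sequencing (ChIP-seq) of NHR-77, a nuclear hormone receptor, gave listed regions at these genes. The 1 group comprised 2 biological replicates of whole L2 larvae, males and females together, strain OP353, which carried the transgene wgIs353 for eGFP-tagged NHR-77 and the mutation unc-119(tm4063). The labels give neither the promoter nor the copy number of the transgene, and the number of animals per replicate is not given in the sources used here. Males and females were pooled, in shares not given here, so signal at these genes cannot be assigned to a sex or to a cell type.

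Dosage compensation evens out X-linked expression between hermaphrodites, which have a pair of X chromosomes, and males, which have a single X. In hermaphrodites the complex binds both X chromosomes and lowers their transcription. Its core is a condensin, a ring of SMC proteins and partner subunits that folds DNA. The SDC proteins bring it to recruitment sites on X, from which it spreads.

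Each gene was given a window made of the gene itself and 2000 bp on either side of its 5′ end. A region was counted where its summit, the position of strongest signal, fell in the window. The pooled relaxed list held 30000 regions, of which the authors' threshold kept the 415 highest as peaks. The list of replicate 1 held 23256 regions, 23 of them mitochondrial, and that of replicate 2 held 30000, none mitochondrial. A region's signal value is the peak caller's score, whose scale is not stated, so ranks (1 is highest) were used between lists. Depth is unknown from the files. Intervals of shares are exact (Clopper-Pearson, 95%) and cover counting error only.

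No peak past the authors' threshold lay in the window of any of the 10 genes (0 of 10, interval up to 30.8%). Over all protein-coding genes the share was 3.04% (607 genes). For the X-linked sdc-1 and sdc-2 it was 0 of 2, against 2.67% of X genes. Since long windows meet a peak more often, each gene was also set beside windows of its own length at other genes. A peak lay in 4.44% of such windows for sdc-1, 5.74% for sdc-2, 5.14% for sdc-3, 6.47% for dpy-21 and 2.81% for dpy-30. The share was 7.76% for mix-1, 4.39% for dpy-27, 4% for dpy-26, 6.76% for dpy-28 and 3.88% for capg-1. A count of 0 among 10 genes is near these backgrounds and is no result about the genes.

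Below the threshold, 9 of the 10 windows held at least 1 pooled relaxed region, against 76.2% of all genes, with 1 of the 2 X-linked genes against 79.6% of X genes. In replicate 1 it was 7 of 10 windows, against 69.3% of all genes, and in replicate 2 it was 9 of 10, against 76.9%. The shares of all genes in this paragraph are for each gene's own window. Of windows of equal length, the share with no pooled region ran from 1.36% (mix-1) to 28.6% (dpy-30). Most such windows thus held a region, so 9 of 10 is no result about the genes. For sdc-1, dpy-26 and dpy-30, which were empty in replicate 1, 13.6%, 17.6% and 36.8% of such windows were empty there. Windows that held some region of each of the 3 lists, not always the same region, numbered 7 of 10, against 53.3% of all genes. A pooled region that overlapped a region in both replicates was found for 6 of the 10. The share of all genes for this stricter measure is not given here, so the count is no result about the genes. The 29 pooled regions ranked from 538 to 29193. The authors' q-value was lowest for the highest regions of sdc-2 (0.0042), mix-1 (0.00465), capg-1 (0.00511) and dpy-21 (0.0438). For all other regions at these genes it ran from 0.0505 (dpy-30) to 0.879 (sdc-3), so most of them are weak by that measure. The windows of mix-1, sdc-2 and capg-1 held a region among the 1000 highest (3 of 10, interval 6.67 to 65.2%), against 6.6% of all genes. Of windows of equal length, 9.69% held a signal at least as high for mix-1, 7.87% for sdc-2 and 6.01% for capg-1. The share of such windows with a region among the 1000 highest is not given here, so the count is a description only. These genes are long, with a median length of 7916 bp against 2027 bp for all protein-coding genes. Over all 10 windows the density was 0.263 regions per kb, against 0.299 per kb of the nuclear genome.

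**Figure D1:**
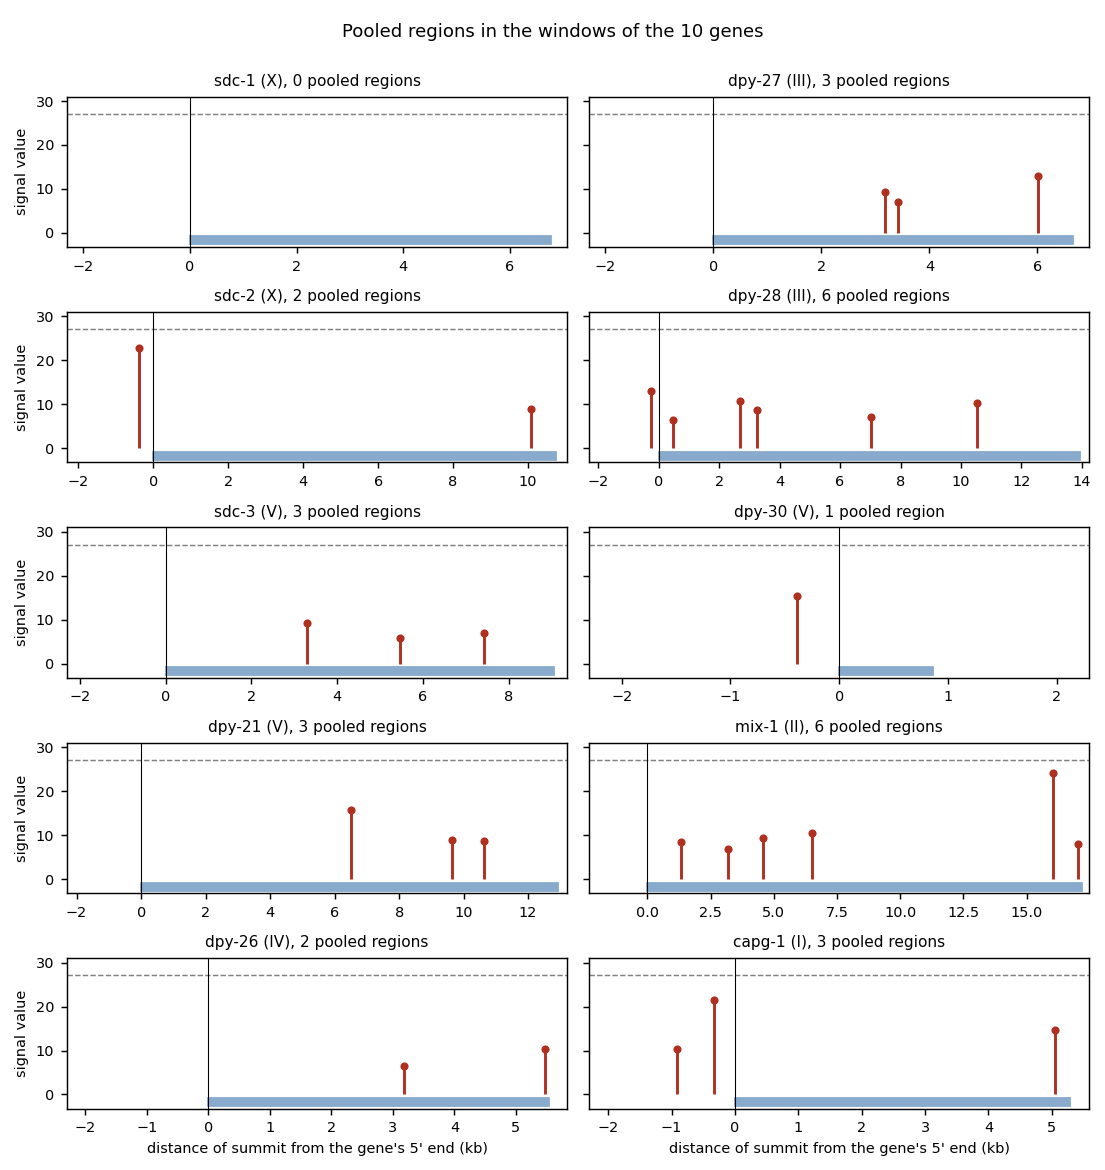
Pooled relaxed regions in the windows of the 10 genes. The x axis is the distance of the summit from the gene's 5′ end in kb, the bar is the gene, each stem is 1 region with its signal value as height, and the dashed line is the lowest signal of a thresholded peak (27.1). All 29 stems end below the line, the highest at mix-1 (24.2), and sdc-1 has none.

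The sequences at 4 of the highest regions are shown as examples of where such regions lay. These are a region at a small RNA gene inside mix-1, regions before the starts of sdc-2 and dpy-30, and a region in an intron of dpy-21. The highest capg-1 region (rank 686) is not shown. Each is the 200 bp around the summit on build ce11, on the strand of the gene, in lower case. Capitals mark matches on either strand to any of 4 patterns: AGGTCA, the core hexamer bound by many nuclear receptors; GCGCAGGG, the core of the motif at X recruitment sites of the complex; GAGAGA; and GGTTCGA, the core of the B box of transfer RNA genes. The last pattern was chosen after the mix-1 sequence had been seen.
mix-1, chrII:10840173-10840372, + strand: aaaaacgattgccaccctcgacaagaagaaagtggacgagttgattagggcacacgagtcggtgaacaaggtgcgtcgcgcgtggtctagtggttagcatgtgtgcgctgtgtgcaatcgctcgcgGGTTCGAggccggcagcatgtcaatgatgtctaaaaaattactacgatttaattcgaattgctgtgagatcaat
sdc-2, chrX:11522228-11522427, + strand: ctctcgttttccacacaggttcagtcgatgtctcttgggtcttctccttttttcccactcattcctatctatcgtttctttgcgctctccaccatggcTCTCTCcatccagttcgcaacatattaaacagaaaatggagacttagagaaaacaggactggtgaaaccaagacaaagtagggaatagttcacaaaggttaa
dpy-30, chrV:12191027-12191226, + strand: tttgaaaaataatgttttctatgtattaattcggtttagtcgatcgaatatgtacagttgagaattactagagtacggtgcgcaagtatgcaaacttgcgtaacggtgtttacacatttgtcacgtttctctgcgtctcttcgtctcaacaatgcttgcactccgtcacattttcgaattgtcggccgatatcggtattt
dpy-21, chrV:17942577-17942776, − strand: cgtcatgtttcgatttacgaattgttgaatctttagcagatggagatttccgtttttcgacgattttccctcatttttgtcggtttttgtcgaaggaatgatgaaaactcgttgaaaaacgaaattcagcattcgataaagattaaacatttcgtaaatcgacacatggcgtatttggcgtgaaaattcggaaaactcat

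The SDC genes act first in the assembly of the complex. sdc-2 (WBGene00004746, X 11522707 to 11533450) encodes the hermaphrodite-specific protein that directs the complex to X. A pooled region (X 11522163 to 11522492, signal 22.8, rank 596) had its summit 379 bp before the 5′ end, outside any annotated gene, with sdc-2 as the nearest protein-coding start. It overlapped the region ranked 1509 in replicate 1 (signal 6.47) and the one ranked 812 in replicate 2 (signal 15.5). The summit of replicate 1 lay farther out, at 512 bp, which is 133 bp from the pooled summit, while that of replicate 2 was 2 bp from it. Of windows of equal length at other genes, 7.87% held a signal at least as high in the pooled list, 17.2% in replicate 1 and 10.3% in replicate 2. The other sdc-2 region, in a coding exon 10074 bp from the 5′ end (signal 8.95, rank 11016), overlapped a region of neither replicate.

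sdc-3 had regions of low signal in the pooled list, and sdc-1 had no region. sdc-3 (WBGene00004747, V 15039148 to 15048207) encodes a zinc finger protein that helps to load the complex. Its 3 pooled regions, all in coding exons, had signals of 9.20, 7.08 and 5.81 and ranks of 10143, 20020 and 29193. None of these 3 regions overlapped a region in both replicates. The highest region of replicate 1 at sdc-3 (rank 3329, 2013 bp into the gene) overlapped no pooled region. The sdc-3 window held 5 regions of replicate 1, against a median of 2 in windows of equal length, and 3 pooled regions, which is the median. Of those windows, 64.1% held a signal at least as high in the pooled list, 29.8% in replicate 1 and 68.2% in replicate 2. sdc-1 (WBGene00004745, X 16275763 to 16282534), which encodes another zinc finger protein of the complex, had 0 regions in the pooled list and in the list of each replicate. The nearest pooled summits lay 2465 bp before its window and 11152 bp beyond it. An empty window of that length occurred at 8.77% of other genes in the pooled list, 13.6% in replicate 1 and 8.16% in replicate 2, and at 6.52% of other X genes in the pooled list. Each list holds a limited number of regions, so an empty window does not show that the sequence had no signal.

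The SMC subunits form the ring of the condensin. mix-1 (WBGene00003367, II 10824246 to 10841424) encodes the SMC2 subunit, which the complex shares with the condensins of cell division. Its window of 19179 bp held 6 pooled regions, the highest of which was the highest of all 29 (II 10840108 to 10840437, signal 24.2, rank 538). The summit lay in an intron 16027 bp from the 5′ end and 44 bp from M106.6, a small nucleolar RNA gene of 75 bp annotated on the same strand (II 10840317 to 10840391). It overlapped the region ranked 597 in replicate 2 (signal 17.3), and no region of replicate 1 overlapped it. In the printed sequence M106.6 starts at base 145, and the GGTTCGA match at base 127 lies just before it. The nearest protein-coding start was that of M106.8, 3354 bp away, and no transfer RNA gene is annotated within 500 bp. Of 346 small nucleolar RNA genes, 186 (53.8%) had a pooled region within 500 bp and 31 (8.96%) had one with a signal at least as high as that at M106.6.

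The other 5 mix-1 regions had signals from 6.88 to 10.5 and ranks from 6599 to 21230. In replicate 1 the highest mix-1 region (rank 2749) was another, in the 3′ UTR 17017 bp from the 5′ end. The region of replicate 1 nearest to the mix-1 start, 3 bp before it (rank 3376), overlapped no pooled region. dpy-27 (WBGene00001086, III 3813018 to 3819679) encodes the SMC4 variant that is particular to dosage compensation. Its highest region lay in the 3′ UTR (III 3813500 to 3813829, signal 12.9, rank 3324) and overlapped regions ranked 2503 in replicate 1 and 13806 in replicate 2. Of windows of equal length, 25.1% held a signal at least as high. The other 2 dpy-27 entries, with ranks 9833 and 21024, overlapped each other and the same region of replicate 2 (rank 7796), so they may reflect 1 region.

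The partner subunits close the ring or bind DNA beside it. capg-1 (WBGene00009254, I 7634492 to 7639785) encodes a HEAT-repeat subunit. A region (I 7639957 to 7640286, signal 21.5, rank 686) had its summit 337 bp before the 5′ end, in the stretch between capg-1 and the next gene, F26A3.1, on the same strand. It overlapped the regions ranked 1421 in replicate 1 (signal 6.58) and 806 in replicate 2 (signal 15.6). The match in replicate 1 was partial: its summit lay 136 bp before the 5′ end, 201 bp from the pooled summit, and 99 bp were shared. In replicate 2 the summits were 77 bp apart. Of windows of equal length, 6.01% held a signal at least as high in the pooled list, 10.5% in replicate 1 and 6.89% in replicate 2. The 2 other capg-1 regions, in its 3′ UTR (signal 14.7, rank 2097) and in F26A3.1 (signal 10.4, rank 6852), overlapped a region of replicate 2 only.

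dpy-28 (WBGene00001087, III 10763131 to 10777076) encodes the other HEAT-repeat subunit. Its 6 pooled regions had signals from 6.39 to 13.0. The highest (III 10762720 to 10763049, rank 3226) lay 246 bp before the 5′ end, at the 3′ UTR of the gene tasp-1 on the same strand, with ranks of 21055 in replicate 1 and 2931 in replicate 2. A signal at least as high was found in 37.5% of windows of equal length. The other 5 dpy-28 regions were intronic. dpy-26 (WBGene00001085, IV 12445801 to 12451335) encodes the kleisin, which links the SMC heads. Its highest region (IV 12445691 to 12446020, signal 10.3, rank 7264) lay where the 3′ UTR of dpy-26 overlaps the gene C25G4.3, 28 bp from the 5′ end of C25G4.3. It ranked 2377 in replicate 2, and replicate 1 listed no region in the dpy-26 window.

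The last pair of genes encodes proteins outside the ring. dpy-30 (WBGene00001088, V 12191519 to 12192385) encodes a small protein that also belongs to the complexes that methylate histone H3 at lysine 4. Its single pooled region (V 12190962 to 12191291, signal 15.5, rank 1733) lay 392 bp before the 5′ end, outside any annotated gene. It ranked 814 in replicate 2 (signal 15.5), and replicate 1 listed no region in the dpy-30 window. Of the windows of 4001 bp at other genes, 9.19% held a signal at least as high in the pooled list and 4.89% in replicate 2. In replicate 1, 36.8% of such windows were empty.

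dpy-21 (WBGene00001080, V 17936282 to 17949193) encodes a demethylase that acts on dimethylated lysine 20 of histone H4. Its highest pooled region (V 17942512 to 17942841, signal 15.8, rank 1633) lay in an intron 6516 bp from the 5′ end and overlapped regions ranked 2178 in replicate 1 and 1946 in replicate 2. The region of replicate 1 shared only 64 bp with it, with its summit 236 bp away, and does not reach the printed sequence, whereas the summit of replicate 2 was 22 bp away. In the pooled list 20.8% of windows of equal length held a signal at least as high. Replicate 1 had a higher dpy-21 region in the 3′ UTR (rank 644, signal 8.29), the only one of its 26 regions at the 10 genes among its 1000 highest. No pooled region overlapped it.

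**Figure D2:**
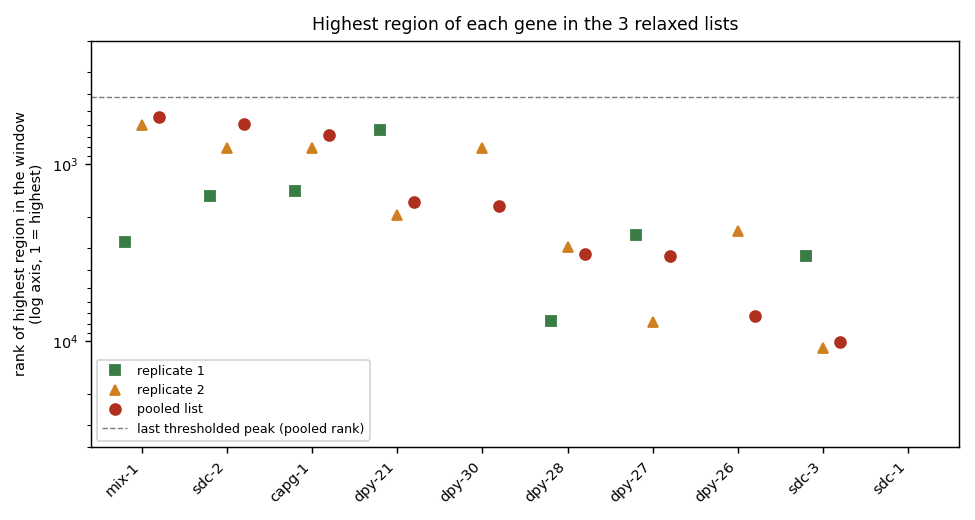
Rank of the highest region in each gene's window (log axis, 1 at the top) in the lists of replicate 1, replicate 2 and both pooled. Genes are ordered by pooled rank from mix-1 (538) to sdc-3 (10143); sdc-1 has no region, and dpy-26 and dpy-30 have none in replicate 1. The dashed line at 415 is the last thresholded peak, and no point lies above it.

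By pooled rank the order was mix-1 (538), sdc-2 (596), capg-1 (686), dpy-21 (1633), dpy-30 (1733), dpy-28 (3226), dpy-27 (3324), dpy-26 (7264) and sdc-3 (10143). The replicates did not share this order. In replicate 1 dpy-21 (644) stood first, followed by capg-1 (1421), sdc-2 (1509), dpy-27 (2503), mix-1 (2749), sdc-3 (3329) and dpy-28 (7763). In replicate 2 mix-1 (597) stood first, then capg-1 (806), sdc-2 (812), dpy-30 (814), dpy-21 (1946), dpy-26 (2377), dpy-28 (2931), dpy-27 (7796) and sdc-3 (11053). sdc-2 and capg-1 were neighbours in all 3 lists, with ranks closer to each other than the replicates were for either gene. Between neighbours in the pooled order, each gap was smaller than the gap between the replicates for at least 1 of the 2 genes.

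8 of the 29 pooled regions (27.6%) overlapped a region in both replicates, 15 only in replicate 2, 3 only in replicate 1 and 3 in neither. Over all pooled regions the share in both was 21.9%. In 4 of the 8 the summits of both replicates lay within 100 bp of the pooled summit. The regions of sdc-2, dpy-21 and capg-1 described above were not among these 4. The share of all pooled regions with summits this close is not given here, so the 4 are a description only. Among ranks 416 to 2500, overlap in both replicates was found for 3 of 6 at these genes against 65.7% of 2085 pooled regions. Among ranks 2501 to 10000 it was 4 of 9 against 33.3% of 7500. Among ranks 10001 to 30000 it was 1 of 14 against 11.5% of 20000. Counts this small do not set the genes apart from other regions of like rank. The replicates' own lists held 26 and 32 regions in the windows, for replicates 1 and 2. Of these, 11 of replicate 1 and 22 of replicate 2 overlapped a pooled region. The shares over all regions of each replicate are not given here, so these counts are a description only.

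Compared with windows of equal length at other genes, the highest pooled signal was above the median for 8 of the 10 genes. It was in the top 10% for sdc-2, dpy-30, mix-1 and capg-1. By replicate, only dpy-21 was in the top 10% in replicate 1, and only dpy-30 and capg-1 were in replicate 2. Numbers of regions were ordinary: 4 genes had more pooled regions than the median window, 3 had as many and 3 had fewer.

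**Figure D3:**
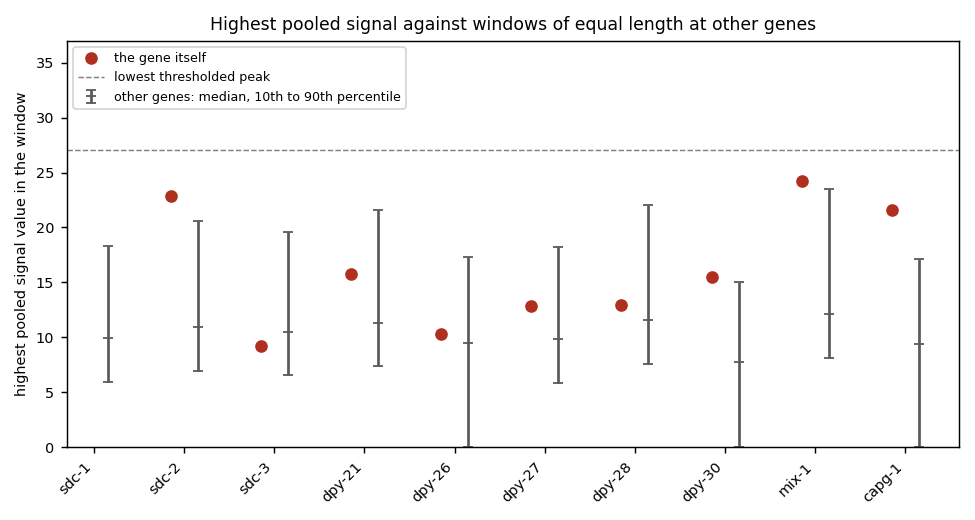
Highest pooled signal value in the window of each gene (points) beside windows of the same length at all other protein-coding genes (median, with bars for the 10th to 90th percentile). The points of sdc-2, dpy-30, mix-1 and capg-1 lie above the bars, sdc-3 lies below its median, and sdc-1 has no point. The dashed line is the lowest thresholded peak (27.1).

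By place, 24 of the 29 regions lay inside the gene: 12 in introns, 8 in coding exons and 4 in 3′ UTRs. The other 5 lay outside. A pooled region stood within 500 bp before the 5′ end of sdc-2, dpy-28, dpy-30 and capg-1 (4 of 10, interval 12.2 to 73.8%), against 22% of all genes. This distance was chosen after the positions had been seen, and the count depends on it: within 250 bp it was 1 of 10, dpy-28, against 12.4% of all genes. For sdc-2 and capg-1 it was a region among the 1000 highest (2 of 10, interval 2.52 to 55.6%), against 2.87% of all genes. No gene of the 10 had a thresholded peak there, against 1.5% of all genes.

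Just outside the windows, 2 of the genes had a thresholded peak. The peak nearest to dpy-28 (III 10759080 to 10759409, signal 68.4, rank 53) lay 3886 bp before its 5′ end and 62 bp from the start of tasp-1. In the replicates it held ranks 60 (replicate 1) and 50 (replicate 2). The peak nearest to dpy-21 (V 17951242 to 17951571, signal 27.5, rank 396) lay 2214 bp before its 5′ end and 542 bp from the start of Y59A8B.24. With a reach of 5000 bp these 2 genes hold a peak (2 of 10, interval 2.52 to 55.6%), against 5.24% of all genes. The share of all genes is for each gene's own window and lies within the interval. A share for windows of equal length at this reach is not given here, so the count is a description only. For the other 8 genes the nearest peak was 18135 bp (dpy-27) to 126785 bp (dpy-30) away.

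In base composition the regions were like the rest of the relaxed list. Windows of 200 bp on their summits had a GC content of 35.8% ± 8.04 (SD over 29 regions), against 34.6% ± 7.26 for the 29585 pooled regions that were no peak and 43.8% ± 7.23 for the 415 peaks. AGGTCA was in none of the 29 windows (interval up to 11.9%), against 4.86% of all pooled regions and 4.10% of peaks. GCGCAGGG was in none of the 29 either, against 0.113% of all pooled regions and 3.37% of peaks, and the whole windows of the 10 genes, 110105 bp in all, held no copy. GAGAGA was in 2 windows, at sdc-2 and dpy-28 (interval 0.846 to 22.8%), against 13.1% of all pooled regions and 37.8% of peaks. The shares of the whole pooled list lie within the intervals for all 3 patterns. In the sdc-2 sequence GAGAGA starts at base 99, on the other strand. Both strands were searched, and no 2 of the patterns overlapped in the printed sequences.

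Among related genes, 34 of 36 on 6 lists were found by symbol; smc-1 and pqn-85 matched no gene name and were not analysed here. A thresholded peak lay in the window of 6 of the 34 (interval 6.76 to 34.5%), against 3.04% of all genes. The lists were chosen with earlier results of these data known, so this count is a description. Of the partners of DPY-30 in histone H3 lysine 4 methylation, 2 of 8 had a peak. These were the methyltransferase gene set-16 (signal 103, rank 25, 166 bp before the 5′ end, ranks 56 in replicate 1 and 23 in replicate 2) and ash-2, which encodes a shared subunit (signal 52.8, rank 81, in an exon, ranks 74 and 99). By contrast dpy-30 itself had no pooled region above rank 1733, though its region ranked 814 in replicate 2, and replicate 1 listed none.

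Of 4 genes for histone H4 lysine 20 methylation, X compaction or anchoring, 1 had a peak: set-4, the methyltransferase gene for di- and trimethylation of that lysine (signal 44.8, rank 130, 261 bp before the 5′ end). It ranked 71 in replicate 1 and 231 in replicate 2. Of the 4 condensin genes outside the complex, 1 had a peak: kle-2, the kleisin gene of condensin II (signal 31.3, rank 294). This peak lay 747 bp before the 5′ end and ranked 222 in replicate 1 and 690 in replicate 2. Of 10 cohesin genes 2 had one: the loader gene mau-2 (signal 33.7, rank 256) and wapl-1, which encodes a release factor (signal 28.9, rank 354). The mau-2 peak lay 1136 bp before the 5′ end and the wapl-1 peak 164 bp before it. Both peaks stood far lower in replicate 1, mau-2 with rank 3085 against 248 in replicate 2 and wapl-1 with rank 1724 against 303. The SMC5/6 pair had none, with smc-5 highest (signal 13.5, rank 2794). Of the 6 X counting and switch genes none had a peak within 2000 bp (interval up to 45.9%). The highest region was 1730 bp before the 5′ end of sea-2 (signal 17.2, rank 1265), an autosomal gene counted against the X signal elements.

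**Figure D4:**
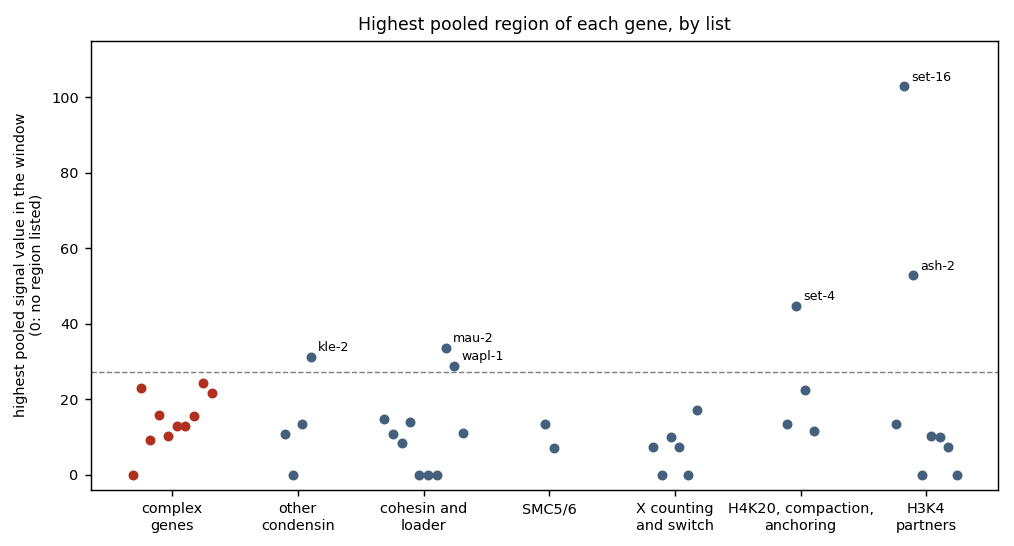
Highest pooled signal value in the window of each gene, for the 10 genes of the complex (left) and 6 lists of related genes; 0 means that no region is listed. Of the 34 related genes, 6 lie above the dashed line of the lowest thresholded peak (27.1), up to 103 for set-16, while the 10 genes of the complex reach 24.2.

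By the ranks of the highest region in replicates 1 and 2, the genes most like mix-1 were C42D4.13 (ranks 3042 and 563) and hxk-2 (2446 and 634), at distances of 0.17 and 0.19 in log2 rank over these 2 samples. Those most like sdc-2 were F26A3.1 (1421 and 806, distance 0.09) and F27C1.6 (1601 and 779, distance 0.10). For capg-1 they were F26A3.1, whose window shares its region (distance 0), and pac-1 (1257 and 815, distance 0.18).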

How the data were processed

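ChIP-seq regions of 2 replicates of 1 group were analysed from 4 deposited lists on build ce11. Text files deposited with the samples say that alignments, together with a control file, gave the authors' relaxed lists, and that these lists gave the thresholded one. Aligner and peak caller: not given in the sources used here. The values used were the authors' signal value, a score per region, with ranks taken within each list and ties given the best rank. The authors' q-value column, deposited as −log10 q, was converted to q and given as a description of the regions at these genes. It was not used for any count or rank. Gene models came from the Ensembl annotation, release 115, of WBcel235, the assembly of ce11, and sequence from the reference genome of the same assembly. The ce10 lists were not used here.

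Windows of equal length started 2000 bp before the 5′ end of every other protein-coding gene and ran in its direction. A region matched a replicate where it overlapped by 1 bp or more, and the highest match was taken. With 1 group and no control sample there was no test between conditions. Shares are set beside those of all genes as descriptions. Planted regions in the windows were all found again when the counting was tested on simulated data. The members, lists and patterns were chosen with earlier results of these data known. Named genes were the 10 members; related genes with a peak or the highest region of their list; the gene nearest to each member region among the 1000 highest; and the 2 genes most alike in replicate ranks to each of the 3 highest members. M106.6, C25G4.3, tasp-1 and Y59A8B.24 fall outside this rule and were named after their values had been seen. Python 3.11.15, pandas 2.3.3, numpy 2.4.6 and scipy 1.17.1 were used.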

Additional observations from a re-analysis of the deposited data

How the results depend on the processing

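The count of 0 genes with a peak was the same with a reach of 1000 bp, with the 5′ end or the gene body alone, with midpoints, transcript starts or the 208 highest peaks, and with the 415 highest nuclear regions of either replicate alone (0 to 0). It was 2 with a reach of 5000 bp, against 5.24% of all genes, and 3 with the 1000 highest pooled regions, against 6.6%. The 29 pooled regions became 7 within 2000 bp of the 5′ ends alone, a shorter window, and 26 to 32 in single replicates. The 4 genes in the top 10% became 1 to 2 with a single replicate (dpy-21 without replicate 2; dpy-30 and capg-1 without replicate 1) and 1, capg-1, by summed signal; with other genes of the same chromosome, or without regions near short RNA genes, mix-1 was not among them, and with a reach of 5000 bp the 4 were sdc-2, dpy-21, dpy-28 and capg-1. The 8 regions in both replicates became 4 with summits within 100 bp and 5 with an overlap of 50% of the shorter region. No share over all pooled regions is given here for these stricter matches. The median highest rank was 1733 over the 9 genes with a pooled region. It was 2503 over 7 genes in replicate 1 and 1946 over 9 in replicate 2. Genes with no region in a list were left out, so these medians cover different sets of genes. AGGTCA was in 2 of the 29 whole regions, against 7.85% of all pooled regions. GAGAGA was in 1 of the 29 windows of 100 bp, against 7.05%. A region lay within 250 bp before the 5′ end of 1 gene (12.4% of all genes), in place of 4 within 500 bp. Within 500 bp replicate 1 gave 3, against 17.1% of all genes, and replicate 2 gave 5, against 21.3%. The related genes with a peak were 5 and 8 with a reach of 1000 and 5000 bp, against 2.28% and 5.24% of all genes. The cause of each of these changes was not tested. No paired analysis was possible because there was only 1 group. Alternatives for short RNA genes, for the distance before the 5′ end and for GGTTCGA were chosen after seeing the data. Depth is unknown from the files, and with 10 genes a moderate excess or lack of peaks was not detectable.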

Other observations

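GGTTCGA was in 1 of the 29 windows at these genes, that of mix-1, against 1.86% of all 30000 pooled regions and 1.93% of the 415 peaks. It was in 148 of 401 pooled regions within 500 bp of a transfer RNA gene (36.9%) and in 8 of 204 near a small nucleolar RNA gene and no transfer RNA gene (3.92%). Among pooled regions ranked 416 to 1000, the band that holds the mix-1 region, it was in 38 of 585 (6.50%). The pattern was chosen after the sequence had been seen, and a match is a description of these letters only.

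Replicate 1 listed 15 regions at these genes that no pooled region overlapped, and replicate 2 listed 10. The highest of these in replicate 1 was in the 3′ UTR of dpy-21, with rank 644. No share over all regions of either replicate stands beside the 2 counts, so they are a description only.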
